A study of Mus musculus with 24 samples.

Results

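The nuclear genes for the subunits of the 5 oxidative phosphorylation complexes were followed in NIH/3T3 cells (mouse embryo fibroblasts kept as a permanent line) that had spent 24 h at 37 °C with halofuginone or with its vehicle, phosphate-buffered saline. Members were the rows of the deposited count table with symbols of the series Nduf (a, b, c, s or v with a number), Sdha to Sdhd, Uqcr, Cox4 to Cox8 and Atp5. Of 49568 symbols 90 matched, and 83 were kept after Cox6a2 and 6 pseudogene symbols ending in -ps were left out. They comprised 37 genes of complex I (Nduf), 4 of complex II (Sdh), 8 of complex III (Uqcr), 17 of complex IV (Cox) and 17 of complex V (Atp5). The rule used symbols and no measured value. Total RNA and 3 pools of polysome gradient fractions were sequenced from each treatment in triplicate, which gave 8 groups of 3 libraries. The pools were a ribosome-free pool (free mRNA particles and single ribosomal subunits), a light pool (monosomes, disomes, trisomes and the like) and a heavy pool (more than 5 ribosomes per mRNA). The labels give halofuginone as 100 nM, and the headers of 1 set of libraries give 50 nM.

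Oxidative phosphorylation is the set of inner mitochondrial membrane complexes that pass electrons from NADH and succinate to oxygen and use the resulting proton gradient to make ATP. Complex I oxidizes NADH, complex II oxidizes succinate, complex III passes electrons from ubiquinol to cytochrome c, complex IV reduces oxygen, and complex V is the ATP synthase. Complexes I, III, IV and V combine a few subunits encoded in mitochondrial DNA with many nuclear ones that are made on cytosolic ribosomes and imported, while all subunits of complex II are nuclear. The number of ribosomes an mRNA can carry is bounded by the length of its coding sequence. Halofuginone blocks the prolyl-tRNA synthetase activity of EPRS, which loads proline onto its tRNAs. By symbol, the list also holds genes that are not structural subunits: Atp5s and Atp5sl are regarded as assembly-related, Cox7a2l is known for its part in respiratory supercomplexes, and Ndufa4 is now counted as a subunit of complex IV.

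Most members encode short proteins. The median was 137 residues over the 83 members against 462 over the genes tested in heavy against light polysomes that have an annotated protein. Proteins of at most 200 residues made up 74.7% of the members and 13.1% of those tested genes. Over the 76 members tested in that comparison, the median was 143.5 residues and 72.4% had at most 200. Prolines made up a median of 5.48% of the residues of the members and 5.46% over the tested genes. The spliced coding sequences of 6 short members, read from the GENCODE M21 transcripts (GRCm38), are given from start to stop codon with every proline codon in capitals. They cover the extremes of the results: Atp5e, Uqcr10 and Uqcr11 were among the lowest in heavy relative to light polysomes, and Uqcrh, Atp5k and Uqcrq were among the extremes of the halofuginone comparison in total RNA.
Atp5e: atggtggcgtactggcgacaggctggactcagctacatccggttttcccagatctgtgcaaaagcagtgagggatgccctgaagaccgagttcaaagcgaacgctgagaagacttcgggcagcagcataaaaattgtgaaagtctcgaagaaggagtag
Uqcr10: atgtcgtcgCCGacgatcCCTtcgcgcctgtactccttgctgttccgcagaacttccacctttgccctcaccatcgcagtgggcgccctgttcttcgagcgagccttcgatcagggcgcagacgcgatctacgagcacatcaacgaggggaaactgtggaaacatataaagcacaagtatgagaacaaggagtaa
Uqcr11: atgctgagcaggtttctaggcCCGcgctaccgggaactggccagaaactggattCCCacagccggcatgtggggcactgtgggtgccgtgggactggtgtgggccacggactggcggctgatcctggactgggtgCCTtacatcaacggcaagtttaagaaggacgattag
Atp5k: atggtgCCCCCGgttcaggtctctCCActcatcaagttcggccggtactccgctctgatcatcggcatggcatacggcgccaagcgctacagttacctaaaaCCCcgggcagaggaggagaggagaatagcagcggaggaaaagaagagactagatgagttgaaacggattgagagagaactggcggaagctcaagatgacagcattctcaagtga
Uqcrh: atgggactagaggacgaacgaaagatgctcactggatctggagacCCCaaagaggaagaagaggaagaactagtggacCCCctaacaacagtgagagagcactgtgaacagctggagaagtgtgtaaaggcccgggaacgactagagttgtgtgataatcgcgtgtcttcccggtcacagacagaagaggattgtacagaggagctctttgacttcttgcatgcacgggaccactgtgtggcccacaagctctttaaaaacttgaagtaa
Uqcrq: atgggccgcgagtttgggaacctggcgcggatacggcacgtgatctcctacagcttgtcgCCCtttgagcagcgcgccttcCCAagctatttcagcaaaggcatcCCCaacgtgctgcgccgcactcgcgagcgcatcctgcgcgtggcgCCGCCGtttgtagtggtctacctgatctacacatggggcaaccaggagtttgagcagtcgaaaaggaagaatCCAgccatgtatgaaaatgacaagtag
The gene Atp5e lies on the minus strand at chr2:174461072-174464105, and its 52 codons before the stop hold no proline codon. Uqcr10 (chr11:4701973-4704342, minus strand) has 64 codons with 2 for proline, and Uqcr11 (chr10:80402997-80406830, minus strand) has 56 codons with 3. Atp5k (chr5:108433244-108434448, minus strand) has 71 codons with 4 for proline. Uqcrh (chr4:116066965-116075071, minus strand) has 89 codons with 2 and Uqcrq (chr11:53427922-53430831, minus strand) has 82 codons with 6.

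A promoter window of 250 bases before to 50 bases after the start was given by RefSeq (GRCm38.p6) for 69 of the 83 members. It was searched on both strands for the NRF1 core GCATGCGC, the ETS core CCGGAAGT that GABP binds, and the YY1 core AAGATGGC, 3 factors known to act on genes of the respiratory chain. The NRF1 letters were found in 10 members (14.5%) and in 6.25% of the genes tested in total RNA that have a promoter window. The YY1 letters were found in 11 members (15.9%) and 5.48% of those genes, and the ETS letters in 5 members (7.25%) and 9.55%. Any of the 3 was found in 25 members (36.2%) and 19.7% of those genes. The 100 bases before the start are shown for a member with the NRF1 letters (Ndufa11, chr17:56717662-56717761, plus strand) and for Uqcr11 (chr10:80406822-80406921, minus strand) and Uqcrh (chr4:116075071-116075170, minus strand), which have the ETS letters, with the matching bases in capitals.
Ndufa11 promoter: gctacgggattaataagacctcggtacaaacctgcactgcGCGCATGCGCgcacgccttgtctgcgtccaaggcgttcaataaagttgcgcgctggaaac
Uqcr11 promoter: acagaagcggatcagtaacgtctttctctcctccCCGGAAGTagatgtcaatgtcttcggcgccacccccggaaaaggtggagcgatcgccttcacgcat
Uqcrh promoter: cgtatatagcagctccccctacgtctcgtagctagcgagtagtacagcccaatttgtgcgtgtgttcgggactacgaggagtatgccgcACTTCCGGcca
The Ndufa11 letters lie on overlapping positions of both strands. The letters in Uqcrh are those of the opposite strand. Uqcr11 also has the NRF1 letters in its window, but not in full within the bases shown. A match describes the letters in this window and was not tested against the measurements.

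Libraries fell into 2 sets that are given before the results because many values differ between them. Set A comprises 8 libraries, 1 per group, whose headers carry a date-like tag, gradient fractions 1 to 2, 3 to 6 and 7 to 11 for the 3 pools, and the 50 nM dose for halofuginone. Set B comprises 16 libraries, 2 per group, with tags 2 and 3 for total RNA and 2 and 4 for the pools, and fractions 1 to 5, 6 to 13 and 14 to 21. The total count ranged from 10.3 to 25 megacounts per library. Both set B halofuginone libraries of total RNA differed far less between themselves than other replicates did, with a mean chi-square of 3.12 per gene against 21.1 for the next closest pair, which still exceeds sampling noise. The cells carried fibroblast markers, with 10 of 11 at 5 CPM (counts per megacount of the library) or more in total RNA, and 0 of 5 epithelial, 0 of 6 leukocyte and 0 of 8 muscle markers at that level. Of the endothelial markers Vwf (1 of 5) and of the adipocyte markers Fabp4 and Lpl (2 of 7) reached it. The summed fibroblast list was 15000 to 16300 CPM in vehicle and 12300 to 14900 CPM in halofuginone libraries, and the summed endothelial list 8.57 to 14.0 and 21.9 to 72.9 CPM; the part of these differences in the results below was not tested.

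In total RNA the members differed widely in level per kilobase of transcript. Complex V and complex IV had the highest medians over all their members in vehicle cells, at 139 and 128 CPM per kilobase. Complex III followed at 95.9, complex I at 68.0 and complex II at 63.35. The 17 genes of complex IV include Cox4i2, Cox6b2, Cox7a1, Cox7b2, Cox8b and Cox8c, each at 0.328 CPM per kilobase or less. They lower its median, and the order of complexes IV and V depends on counting them. The highest member was Atp5b, the catalytic beta subunit of the ATP synthase, at 736 ± 38.2 CPM per kilobase (SD, n = 3). Ndufa4, Uqcrh, Cox8a and Cox4i1 followed at 478 ± 31.7, 463 ± 64.6, 439 ± 11.2 and 396 ± 45.5 CPM per kilobase, and neighbours in this order of 4 had overlapping ranges over the 3 libraries, while Atp5b lay above all of them. Among the 3 genes for the identical c-ring subunit of complex V, Atp5g3 was highest at 369 ± 36.3 CPM per kilobase, with Atp5g2 at 87.4 ± 2.54 and Atp5g1 at 17.8 ± 1.62. The low value of Atp5g1 goes with an annotated transcript of 4715 bases, and without division by length it stood above Atp5g2, at 84.0 ± 7.63 against 38.5 ± 1.12 CPM.

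Of the isoforms known from other tissues, nearly all were close to absent. Cox4i2 (the hypoxia and lung isoform of subunit 4), Cox6b2 and Cox8c (testis), Cox7b2, Cox8b (heart and muscle) and Ndufa4l2 (hypoxia-induced) had a mean under 1 CPM in each of the 8 groups. Cox8c had 0 counts in the 24 libraries, Cox6b2 had 4, Cox7b2 had 5, Cox4i2 had 48, Cox8b had 65 and Ndufa4l2 had 118. Cox7a1, the muscle isoform, was at 0.129 ± 0.0838 CPM in vehicle total RNA and 0.209 ± 0.132 CPM in halofuginone total RNA (SD, n = 3). The broadly expressed counterparts were abundant: Cox4i1 stood at 295 ± 33.9 CPM in vehicle total RNA. In most fits 76 of the 83 members passed the filter on low counts, and all counts of members below refer to those that passed. Ndufs5, Ndufb4 and Atp5l had low counts for subunits that every cell uses, at 0.919, 4.84 and 10.3 CPM per kilobase in vehicle total RNA, and reads shared with near-identical copies could lower them. Values of Atp5o, Ndufb2, Ndufb8, Ndufb9 and Atp5g2 carry a similar limit, because their exons overlap another annotated gene on the same strand or share its name.

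Over the 8 groups the 5 complexes did not move together. In vehicle cells, complex II and complex V held larger shares of the counts in heavy polysomes than in light ones, whereas complexes III and IV held smaller ones. Complex IV took 0.474, 0.647 and 0.647% of the counts of the vehicle light libraries and 0.234, 0.313 and 0.261% of the vehicle heavy libraries, with no overlap. Complex V took 0.579, 0.527 and 0.678% in light and 0.758, 0.833 and 0.998% in heavy libraries, again with no overlap and in the opposite direction. This sum is weighted toward abundant members such as Atp5b, and the share without Atp5b is not given. Atp5a1, Atp5b, Atp5c1 and Atp5f1 were higher in heavy libraries without overlap. Atp5e, Atp5g1, Atp5j, Atp5j2, Atp5k, Atp5l and Atp5sl were lower without overlap, so the complex did not shift as a whole. Complex II was at 0.0600 ± 0.00508% in light and 0.100 ± 0.0151% in heavy libraries (mean ± SD, n = 3), without overlap, and complex III at 0.256 ± 0.0381% and 0.139 ± 0.0265%. Complex I had a smaller difference, at 0.680 ± 0.151% and 0.573 ± 0.106%. The members together took 1.13 ± 0.0812% of vehicle and 0.993 ± 0.289% of halofuginone total RNA counts, 2.18 ± 0.323% and 1.89 ± 0.131% in light polysomes and 1.94 ± 0.279% and 1.93 ± 0.228% in heavy polysomes. In the ribosome-free pool the share was 2.67% in the set A vehicle library and 0.878 and 0.89% in the set B ones. Halofuginone libraries of that pool showed the same split, at 2.17% in set A and 0.8 and 1.06% in set B. RNAs encoded in mitochondrial DNA took 8.69 to 11.1% of the ribosome-free counts in set A and 22.9 to 34.9% in set B, and their part in this split was not tested.

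**Figure D1:**
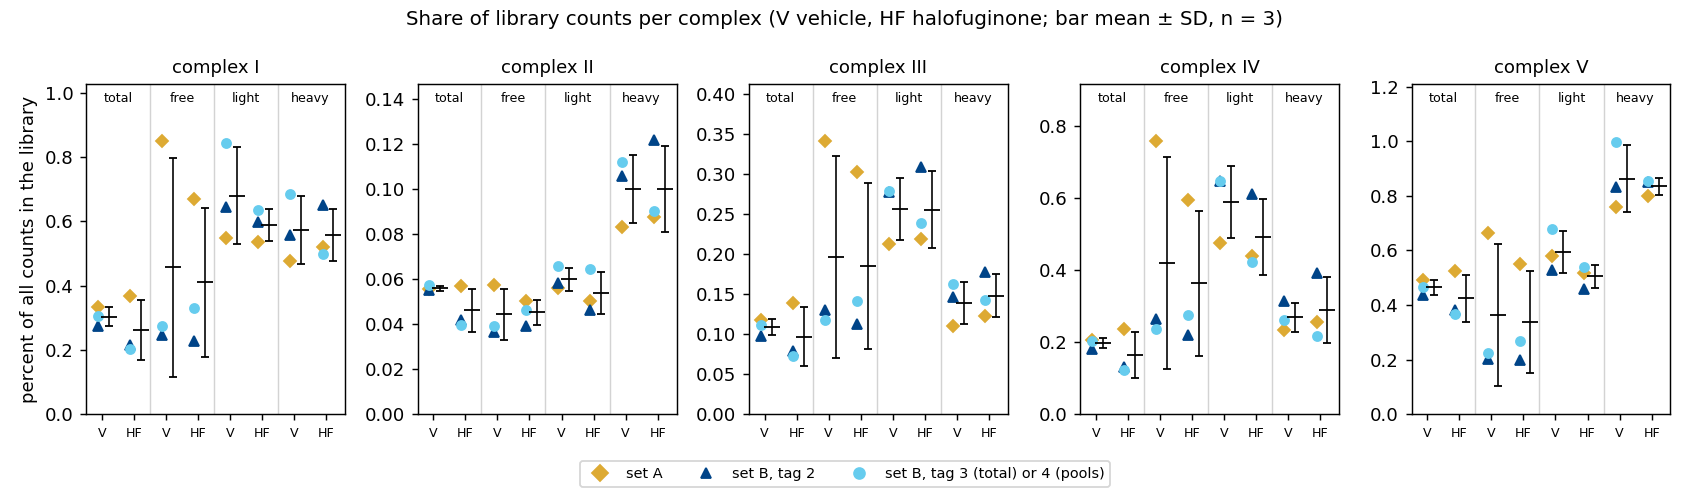
Share of all library counts (percent, linear axis from 0) taken by the members of each complex in the 8 groups; symbols are single libraries (diamonds set A, triangles and circles set B) and bars the mean ± SD of 3 libraries. Complex IV was higher in all 3 light than in all 3 heavy vehicle libraries (0.474 to 0.647% against 0.234 to 0.313%), complex V the reverse, and the set A ribosome-free libraries stand above those of set B for every complex.

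Halofuginone against vehicle in total RNA gave opposite directions in the 2 library sets. The median log2 ratio of the 76 members was 0.17 in the set A pair, with 70 members above 0, and -0.40 and -0.49 in the set B pairs, with 19 and 14 above 0. Of the 56 members that were lower in both set B pairs, 55 were higher in the set A pair. Pairs are by tag, which does not pair libraries in total RNA. The 2 set B halofuginone libraries are close to each other, and whether the set B pairs are independent results was not tested. Across all 3 libraries a group, edgeR's quasi-likelihood test with Benjamini-Hochberg adjustment called 0 of 76 members, with 2 at an unadjusted p under 0.05, and DESeq2 also called 0 members. The percentage called over all 13020 genes tested was 0, with 2221 genes at an unadjusted p under 0.05, and DESeq2 called 450 genes. In RNA from a whole culture, less RNA per cell and fewer cells with the RNA cannot be told apart.

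**Figure D2:**
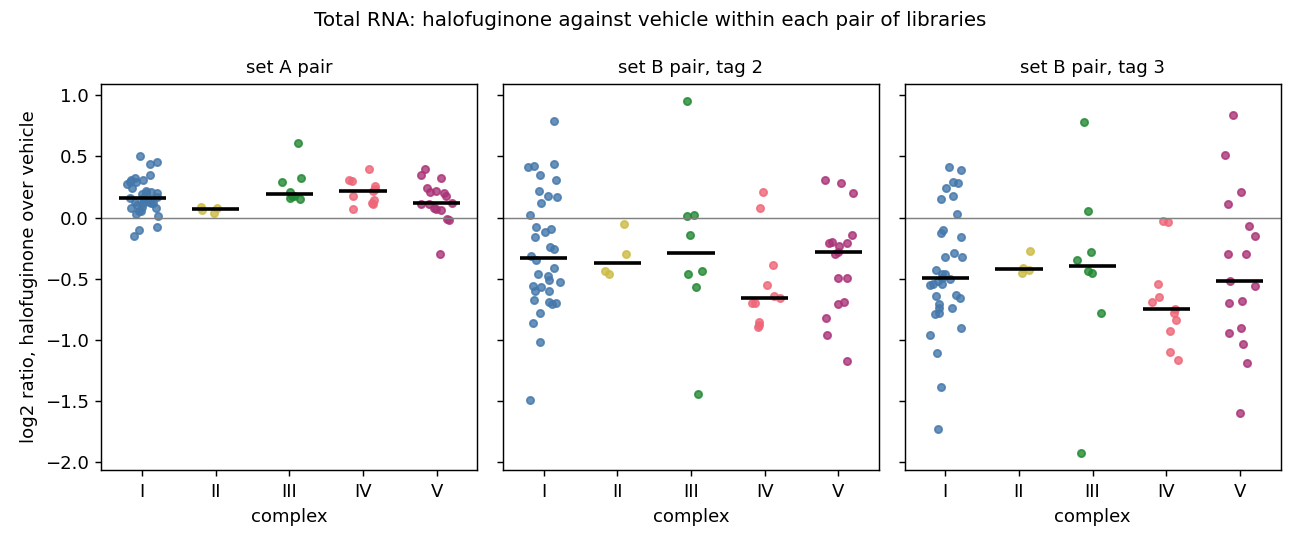
log2 ratio of halofuginone over vehicle in total RNA for each tested member, by complex, in the 3 pairs of libraries that carry the same tag. The tag does not pair libraries in total RNA, and black lines are medians. The set A pair lies mostly above 0 (median 0.17), and both set B pairs lie mostly below 0 (medians -0.40 and -0.49), with complex IV lowest at -0.66 and -0.75.

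Within set B the difference was large and went mostly one way. There, 62 of 76 members were called, 55 lower and 7 higher with halofuginone, against 36.9% of all 13334 genes called lower and 32.9% called higher. DESeq2 within set B, an alternative added after seeing the data, called 54 members, 47 lower and 7 higher. These p-values rest on 2 libraries a group, and the closeness of the 2 halofuginone libraries makes the spread they are judged against small. Whether these 2 libraries came from separate cultures was not tested; if they did not, halofuginone has 1 replicate in set B and the set B p-values for total RNA do not hold. In set B, 9309 of 13334 genes (69.8%) were called. Leaving out the set A halofuginone library alone gave 52 called members, 49 lower and 3 higher, and a median of -0.54 in place of -0.18. The shares of all genes called in that fit and by DESeq2 within set B are not given here. Those 2 counts of members therefore cannot be set against all genes. Headers of set A give 50 nM, those of set B give no dose and the labels give 100 nM for all, so a dose difference between the sets is not established and could not be told apart from the set.

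Within set B, complex III held both the lowest and the highest fitted value, while over 3 libraries a group Ndufv3 of complex I was lowest. Uqcrh, the hinge protein that helps cytochrome c1 and cytochrome c interact, was at 271, 212 and 276 CPM in vehicle and 304, 77.9 and 72.3 CPM in halofuginone total RNA, in the order set A, set B tag 2, set B tag 3. Both set B halofuginone libraries lay below all vehicle libraries and the set A one lay above them. The log2 fold change was -0.76 ± 0.60 (SE) over 3 libraries a group, with an edgeR adjusted p of 0.471, and -1.77 ± 0.15 within set B, with an adjusted p of 8.46e-05. Uqcrq, the ubiquinone-binding subunit QP-C, ran the other way in every library. It was at 126, 91.4 and 91.6 CPM in vehicle and 193, 177 and 157 CPM in halofuginone total RNA, so the groups did not overlap. Its log2 fold change was 0.74 ± 0.20 over 3 libraries a group (edgeR adjusted p 0.283) and 0.80 ± 0.08 within set B (2.77e-05). The core proteins Uqcrc1 and Uqcrc2, and the Rieske iron-sulfur protein Uqcrfs1, had smaller set B values of -0.27, -0.04 and -0.52, of which the first and the last were called.

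In complex I, 25 of 36 members were called lower and 4 higher within set B, against 36.9% and 32.9% of all genes. The limit given above for the set B p-values holds for each complex. Ndufv3, a subunit of the NADH-binding module, was at 82.8, 61.9 and 77.2 CPM in vehicle and 87.5, 21.7 and 22.9 CPM in halofuginone total RNA. Again the set A halofuginone library was the highest of the 6 and the set B ones the lowest. Its log2 fold change was -0.77 ± 0.58 over 3 libraries a group (edgeR adjusted p 0.459) and -1.71 ± 0.13 within set B (1.41e-05). Ndufb9, a membrane-arm subunit, was lower by -1.29 ± 0.11 within set B (9.68e-06). Of the catalytic core, Ndufs1 and Ndufv1, which carry electrons from NADH, had set B log2 fold changes of -0.59 and -0.73, both called. The 4 members called higher were Ndufa7 at 0.53, Ndufs4 at 0.30, Ndufs7 at 0.28 and Ndufa9 at 0.22. Ndufa7 was at 77.1, 55.4 and 64.7 CPM in vehicle and at 98.1, 96.1 and 86.5 CPM with halofuginone, with no overlap.

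In complex II all 4 subunits were called lower within set B, against 36.9% of all genes, and none was an extreme. The log2 fold changes were -0.44 for Sdha (the flavoprotein), -0.44 for Sdhb (the iron-sulfur protein), -0.31 for Sdhc and -0.49 for Sdhd (the membrane anchors), each with an SE of 0.08 to 0.10. Sdha was at 157, 166 and 148 CPM in vehicle and 167, 121 and 122 CPM with halofuginone. In set A the 4 ratios had a median of 0.07.

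Complex IV had the lowest median within set B, -0.78. There, 9 of 11 members were called lower and 0 higher, against 36.9% and 32.9% of all genes. Cox6b1 fell by 1.10 ± 0.09 on the log2 scale within set B (edgeR adjusted p 7.15e-06), Cox7a2 fell by 1.06 ± 0.09 (7.31e-06) and Cox6c fell by 0.91 ± 0.07 (5.32e-06). These are small nuclear subunits that surround the mitochondrially encoded catalytic core. Cox6b1 was at 150, 144 and 162 CPM in vehicle and 170, 77.7 and 72.2 CPM with halofuginone, again with set A above and set B below the vehicle range. Cox4i1, the largest nuclear subunit, and Cox5a were the 2 members not called, with set B values of 0.01 and -0.04. Cox4i1 was at 329, 261 and 294 CPM in vehicle and 406, 302 and 286 CPM with halofuginone, so the groups overlapped.

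Complex V had 12 of 17 members called lower and 2 higher within set B, against 36.9% and 32.9% of all genes. The membrane-sector subunit Atp5k had a set B log2 fold change of -1.48 ± 0.15 and the stalk subunit Atp5o, known as OSCP, one of -1.15 ± 0.09 (edgeR adjusted p 0.000189 and 4.02e-06). The catalytic beta subunit Atp5b and Atp5a1 differed in direction. Atp5b was at 1490, 1360 and 1380 CPM in vehicle and 1610, 1650 and 1590 CPM with halofuginone, without overlap (set B log2 fold change 0.18 ± 0.07, adjusted p 0.0395), whereas Atp5a1 had a set B value of -0.59 ± 0.07 (6.29e-05). Of the c-ring genes, Atp5g3 was lower by -0.83, Atp5g1 by -0.47 and Atp5g2 by -0.33 within set B, all called. Across all 3 libraries a group, 5 members were higher with halofuginone without overlap (Atp5b, Ndufa7, Ndufa9, Ndufs4 and Uqcrq), which is 6.58% of members against 13.6% of all genes, and 0 were lower without overlap, against 10.6%.

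**Figure D3:**
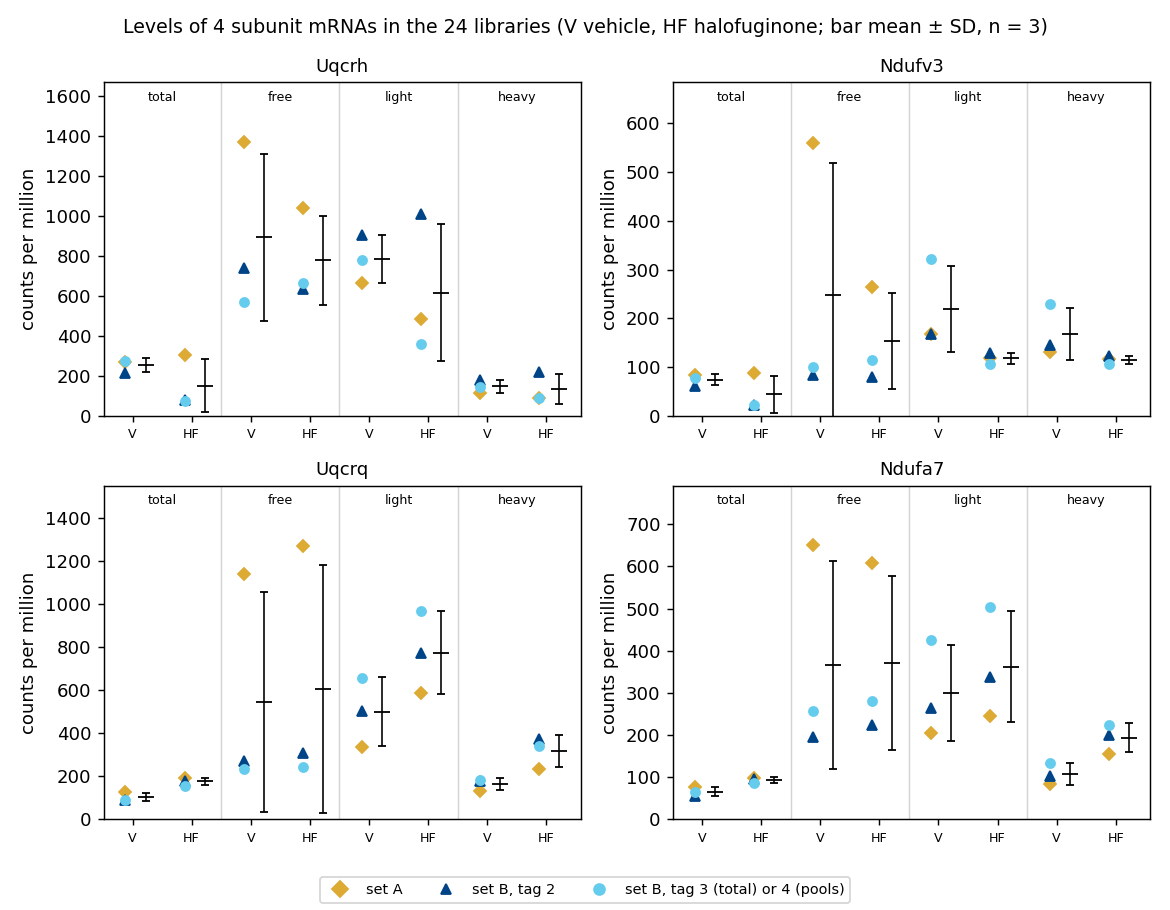
Levels in CPM (linear axes from 0) of Uqcrh, Ndufv3, Uqcrq and Ndufa7 in the 24 libraries; symbols are single libraries and bars the mean ± SD of 3. In total RNA, Uqcrh stood at 77.9 and 72.3 CPM in the set B halofuginone libraries and at 304 CPM in the set A one, while Uqcrq and Ndufa7 were higher with halofuginone in total RNA and in heavy polysomes without overlap.

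Related gene lists are given for set B beside the shares over all genes, 32.9% higher and 36.9% lower, and beside the subunits, 7 of 76 higher and 55 lower. Of 45 tested assembly factors for the complexes, 19 were called higher and 12 lower, among them Timmdc1 (1.22, complex I assembly) and Sco1 (1.07, copper delivery to complex IV). Of 14 regulators of mitochondrial biogenesis, 10 were called higher and 2 lower, led by Pprc1 (0.97, a PGC-1 family coactivator) and Gabpb1 (0.86, a GABP subunit). Of 13 citric acid cycle enzymes 2 were higher and 8 lower, among them Ogdh (-1.11). Mitochondrial ribosomal proteins had 37 of 78 higher and 20 lower, and cytosolic ribosomal proteins 26 of 84 in each direction. Of 7 tested RNAs encoded in mitochondrial DNA, 1 was called lower, mt-Nd6 at -1.57. With 3 libraries a group edgeR called none of these genes, and the medians were 0.15, 0.37, -0.15, 0.20, 0.19 and 0.07 in the order given. The lists were not compared with each other by a test.

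In the polysome pools no member was called for halofuginone. edgeR called 0 of 76 members in the ribosome-free, light and heavy pools, with 0, 1 and 2 members at an unadjusted p under 0.05, and DESeq2 also called 0 in each. The percentage of all genes called was 0 in each pool, and DESeq2 called 1, 39 and 79 genes. With the column tag as a block, edgeR called 0.234, 0.0237 and 0.0164% of all genes and still 0 members. The medians of the members were -0.13, -0.14 and 0.04. In the heavy pool 6 members were higher without overlap (Atp5j2, Cox4i1, Ndufa12, Ndufa7, Ndufs5 and Uqcrq), 7.89% against 6.95% of all genes, and 1 was lower (Ndufv3), 1.32% against 6.01%. In the light pool 3 were lower without overlap (Atp5g3, Atp5o and Ndufv3), 3.95% against 5.93% of all genes, and 0 higher, against 4.48%.

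Several members described for total RNA, among them Uqcrq, Ndufa7, Ndufv3, Atp5g3, Atp5o and Cox4i1, differed without overlap in at least 1 translated pool. As given above, the shares of such members were near or below those of all genes. Of the members named, only Uqcrq and Ndufa7 were also without overlap in total RNA. None of the members named passed the test in the translated pools. Uqcrq was at 130, 180 and 183 CPM in vehicle and 233, 375 and 339 CPM in halofuginone heavy polysomes, with no overlap (0.88 ± 0.28 on the log2 scale, edgeR adjusted p 0.803). In light polysomes it was at 336, 503 and 656 CPM and at 585, 770 and 967 CPM, where the groups overlap (0.63 ± 0.35, adjusted p 0.985). Ndufa7 was at 82.8, 104 and 134 CPM in vehicle and 156, 201 and 225 CPM in halofuginone heavy polysomes (0.80 ± 0.28, adjusted p 0.803), with no overlap. Ndufv3 was at 168, 168 and 322 CPM in vehicle and 118, 129 and 106 CPM in halofuginone light polysomes (-0.91 ± 0.34, adjusted p 0.985). Other extremes of the light pool were Atp5g3 (-0.47), Ndufb9 (-0.46), Ndufa9 (0.33) and Ndufs1 (0.28), and of the heavy pool Ndufs8 (-0.39), Atp5l (-0.34) and Ndufs5 (0.62), none of them called. In the ribosome-free pool the lowest fitted values were Ndufv3 (-0.72), Cox6a1 (-0.47) and Cox5b (-0.45) and the highest Cox7a2l (0.26), Uqcrq (0.15) and Sdhd (0.13), again with no call. These directions rest on single libraries: without the set A vehicle library Ndufv3, Cox6a1 and Cox5b were at 0.80, 0.43 and 0.94, and without the set A halofuginone library Uqcrq was at -1.09. Uqcrh, the lowest member of set B total RNA, overlapped between treatments in heavy polysomes, at 115, 181 and 144 CPM and at 90.4, 219 and 86.4 CPM (log2 fold change -0.20 ± 0.40), and Atp5k had a value of 0.08 ± 0.29 there.

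The halofuginone difference in heavy polysomes was also set against that in total RNA and in light polysomes by an interaction contrast. edgeR and DESeq2 called 0 of 76 members for heavy minus total RNA and 0 of 77 for heavy minus light polysomes, with 0 at an unadjusted p under 0.05 in each, and edgeR called 0% of all genes. The median of the members was 0.24 for heavy minus total RNA, with 64 of 76 above 0, and within set B 0.53. The median over all genes was -0.02. The medians were -0.03 in set A, 0.66 for the set B libraries with tag 2 and 0.26 for the remaining set B libraries, whose tags differ (4 in heavy polysomes and 3 in total RNA), so the set A pair did not share the positive median. For heavy minus total RNA the extremes were Atp5s (-0.57), Atp5l (-0.25) and Atp5f1 (-0.23) below and Atp5k (0.68), Ndufb3 (0.64) and Cox6b1 (0.63) above. For heavy minus light polysomes they were Ndufa9 (-0.32), Uqcrc1 (-0.30) and Ndufs1 (-0.29) below and Cox7a1 (1.02), Ndufs5 (0.81) and Ndufa7 (0.46) above, of which Cox7a1 and Ndufs5 rest on very low counts.

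Between heavy and light polysomes of vehicle cells the members split by the length of the protein they encode. Of 76 members 14 were called higher in heavy polysomes and 32 lower, against 13.6% and 18.1% of all 12586 genes tested. All 18 members with a protein of at most 100 residues were called lower, as were 14 of the 37 with 101 to 200 residues, and none of those 55 was called higher. Of the 12 members with 201 to 400 residues 6 were called higher and 0 lower, and of the 9 over 400 residues 8 were called higher and 0 lower. Across the 76 members the log2 fold change and the log10 of the residue number had a Pearson r of 0.89 and a Spearman rho of 0.911, and across 11162 tested genes with an annotated protein 0.385 and 0.309. Genes are not replicates, and all points share the same 6 libraries. In these, RNAs from mitochondrial DNA took 2.41 to 4.98% of light and 0.276 to 0.394% of heavy counts. Over both treatments the highest values were 7.71% in light and 0.746% in heavy polysomes. The proline percentage of the members had a Pearson r of -0.055 with the same fold change.

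**Figure D4:**
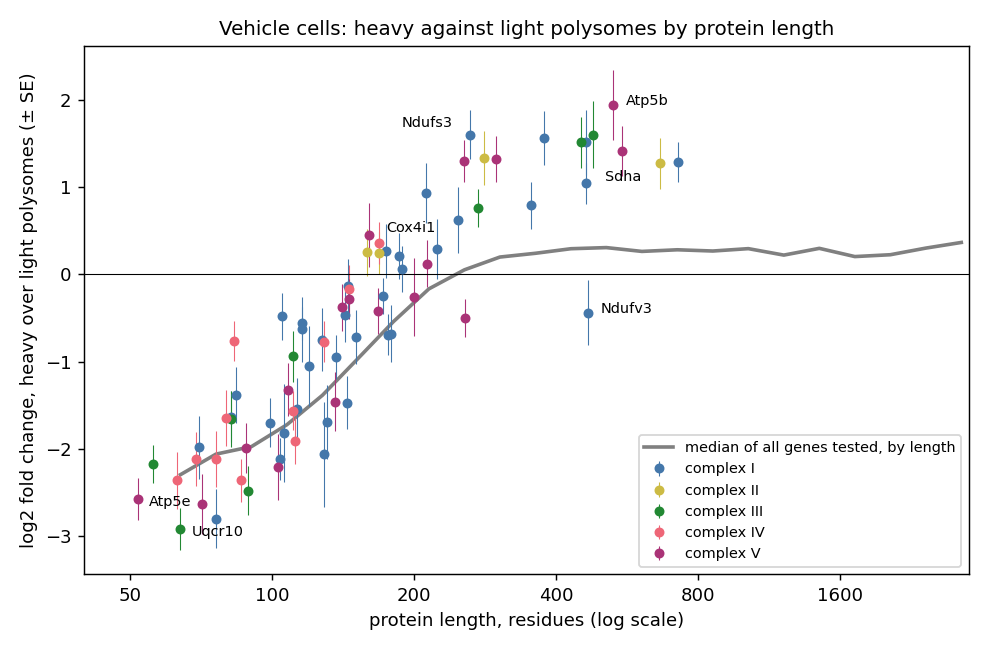
log2 fold change of heavy over light polysomes in vehicle cells (± SE) against protein length (log axis) for the 76 tested members, coloured by complex, with the median of all genes tested by length as a grey line. Members of at most 100 residues all lie below 0 (median -2.12), and of 9 members over 400 residues 8 lie above 0 (median 1.41), where the grey line is near 0.28.

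Short members moved like other short genes, and long members stood above other long genes. The median was -2.12 for the 18 members of at most 100 residues and -2.13 for 208 other genes of that length. From 101 to 200 residues the medians were -0.68 and -0.98, from 201 to 400 residues 0.86 and 0.11, and over 400 residues 1.41 and 0.28, with an upper quartile of 0.77 for the 6496 other genes of the last bin. Cytosolic ribosomal proteins of 201 to 400 residues had a median of -0.63 (21 genes) and mitochondrial ribosomal proteins of that length one of 0.54 (33 genes). Citric acid cycle enzymes had a median of 1.43, with 9 of 13 called higher and 0 lower. Of 45 assembly factors 5 were called higher and 19 lower, and all 7 tested RNAs encoded in mitochondrial DNA, which cytosolic ribosomes do not translate, were called lower with a median of -3.39. These medians are descriptions, and the difference between lists was not tested.

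The lowest members were small subunits of complexes III, I and V. Uqcr10, a small subunit of complex III, was at 226, 287 and 308 CPM in light and 38.8, 36.6 and 37.8 CPM in heavy polysomes of vehicle cells, far from overlap, and the log2 fold change was -2.92 ± 0.24, for which edgeR gave an adjusted p of 0.00101. Ndufc1, an accessory subunit of complex I, followed at -2.80 ± 0.34, Atp5k at -2.63 ± 0.34 and Atp5e, the epsilon subunit of the ATP synthase, at -2.57 ± 0.24. Atp5e was at 152, 108 and 116 CPM in light and 26.4, 20.2 and 19.6 CPM in heavy polysomes. Its coding sequence is the shortest of the 6 printed above. Uqcr11 and Uqcrh of complex III had -2.17 and -2.48, Cox6b1 and Cox7c of complex IV -2.36 each, and Ndufb3 of complex I -2.12, all called.

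The highest member was Atp5b. It was at 1200, 447 and 596 CPM in light and 2870, 2560 and 3540 CPM in heavy polysomes, with no overlap (log2 fold change 1.94 ± 0.40; adjusted p by edgeR 0.0108). Ndufs3 (1.60), Uqcrc1 (1.60), Ndufa9 (1.56), Uqcrc2 (1.51), Ndufv1 (1.51), Atp5a1 (1.41), Sdhb (1.33), Atp5c1 (1.32), Atp5f1 (1.30), Ndufs1 (1.29), Sdha (1.27) and Uqcrfs1 (0.76) were also called higher. Within a complex the direction therefore followed the subunit: in complex III, 3 members were called higher (Uqcrc1, Uqcrc2 and Uqcrfs1) and the 5 others (Uqcr10, Uqcr11, Uqcrb, Uqcrh and Uqcrq) lower. In complex IV, 9 of 11 were called lower and 0 higher; Cox4i1 (0.36) and Cox5a (-0.17) were not called. In complex II the larger Sdha and Sdhb were called and the anchors Sdhc (0.24) and Sdhd (0.25) were not.

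Ndufv3 stood apart among the long members. Its annotated principal protein has 468 residues, of which 54 (11.5%) are prolines, and its log2 fold change was -0.44 ± 0.37 (edgeR adjusted p 0.375), the lowest of the 9 members over 400 residues. The annotation also holds proteins of 86 and 104 residues for this gene, and counts per gene do not separate them. It was chosen for description after its value was seen.

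In halofuginone cells the split between heavy and light polysomes had the same form. Of 76 members 73 lay on the same side of 0 in both treatments, 26 above and 47 below. edgeR called 5 members higher and 17 lower, against 1.88% and 7.01% of all 12310 genes, and all 22 were among the 46 called in vehicle cells. With the column tag as a block 18 were called higher and 30 lower, against 25.7% and 26.5% of all genes. The count without the block fell to 0 when the first halofuginone heavy library (set A) was left out and to 1 without replicate 3. It was 13, 2 and 11 without replicate 1, 2 or 3 of the halofuginone light libraries, and within set B it was 0 with 28 members at an unadjusted p under 0.05. The medians by length were -1.88 up to 100 residues, -0.34 for 101 to 200, 0.89 for 201 to 400 and 1.31 over 400. Pearson r with the log10 of the residue number was 0.87.

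**Figure D5:**
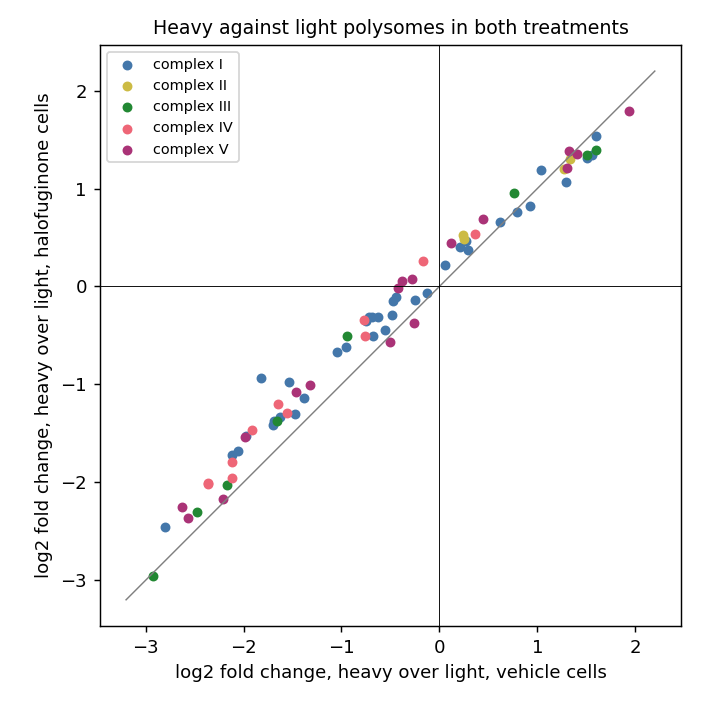
log2 fold change of heavy over light polysomes in halofuginone cells against that in vehicle cells for the 76 members, coloured by complex, with the line of equal values. The points run along the line, with 73 of 76 on the same side of 0 in both treatments and Uqcr10 (-2.92 and -2.96) and Atp5b (1.94 and 1.79) at the ends.

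Uqcr10 had nearly the same value in both treatments, -2.96 ± 0.34 with halofuginone (edgeR adjusted p 0.0136) after -2.92 in vehicle, and Atp5e had -2.36 ± 0.33 (0.0141). Ndufc1 (-2.46), Uqcr11 (-2.03) and Cox7c (-2.01) were also called lower. The 5 members called higher were Atp5b (1.79), Ndufs3 (1.54), Atp5c1 (1.38), Atp5a1 (1.35) and Uqcrc2 (1.34). The difference between treatments had a median of 0.15 over 77 members, with 56 above 0, against -0.06 over all genes, and 12 of 12 complex IV members were above 0. As given above, none of these differences was called. By pair of tags the medians were 0.23, 0.31 and 0.11.

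Light polysomes against the ribosome-free pool gave opposite directions in the library sets, whose gradients were pooled over different fractions. In vehicle cells the median of the 76 members was -1.19 in set A, with 6 members above 0, and 0.55 and 1.03 in set B, with 64 and 69 above 0. Halofuginone cells gave -1.0 in set A and 0.58 and 0.57 in set B. With 3 libraries a group edgeR and DESeq2 called 0 of 76 members in either treatment, against 1.61% of all genes in vehicle and 0.129% in halofuginone cells by edgeR. Within set B, edgeR called 22 members higher in vehicle light polysomes, against 6.34% of all genes, and 0 lower, against 7.12%. Without the set A vehicle ribosome-free library alone it called 13 members. Atp5g3, a c-ring gene, and Ndufa13 were higher in light polysomes without overlap in all 3 libraries of both treatments, 2.63% of members against 16.8% of all genes in vehicle and 14.2% in halofuginone cells. As many members were lower without overlap, Ndufc1 and Sdhd in vehicle and Atp5s and Cox7a2l in halofuginone cells. That was 2.63% of members in each treatment, and the share of all genes in that direction is not given here. Atp5g3 was at 566, 187 and 119 CPM in ribosome-free and 675, 720 and 892 CPM in light polysome libraries of vehicle cells (log2 fold change 1.29 ± 0.59, edgeR adjusted p 0.294), and at 442, 183 and 118 against 549, 516 and 589 CPM with halofuginone.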

How the data were processed

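Poly(A) RNA of 24 libraries was sequenced with a stranded kit. The authors deposited 1 table of raw counts per gene. The submitters' processing notes name GRCm38.p5, featureCounts (Subread 1.5.0p3), the aligner STAR 2.5.2b and the trimmer Trimmomatic 0.36. Strand and multiple-mapping settings were not given there, and reads of near-identical genes may have been lost or split. Each column was matched to its group by its header, not to a single sample, and replicate numbers only name libraries. Pools were assigned by taking the fraction numbers in the headers as counted from the top of the gradient, which is an assumption.

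Each of the 10 comparisons was fitted on the whole table with edgeR 4.0.16 (R 4.3.3; TMM, filterByExpr, robust quasi-likelihood test, two-sided). Called means a Benjamini-Hochberg adjusted p under 0.05 over all genes tested. SE is derived from the fitted log2 fold change and its F statistic. The script was tested on simulated counts. These had a common spread and no difference between library sets, so they do not show how the test performs on the spread of these libraries. Levels are CPM (counts per megacount) with TMM factors over the 24 libraries, divided by the length of 1 coding transcript per gene (GENCODE M21) where given per kilobase. Log2 ratios of library pairs used a pseudocount of 0.5 CPM. Alternatives were DESeq2 1.42.0, other normalizations, no filter, each library left out, set B alone, the set as a covariate and the tag as a block.

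In the pool comparisons, deviations from the group means correlated between same-tag libraries at 0.125 to 0.931. These values exceeded the highest one between different tags, except for light polysomes against ribosome-free RNA in halofuginone cells. There the lowest same-tag value was 0.125 and the highest different-tag value 0.173. The tag does not pair libraries in total RNA (0.404, 0.449 and 0.000437, against 0.511 between different tags). The labels call the libraries biological triplicates.

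The members, the other gene lists and the use of set B were chosen with earlier results of these data known. Named members were a fixed list, the 3 highest and 3 lowest fitted values and the smallest p-values of each comparison, and the members under 1 CPM; others were chosen after their values were seen. Some genes that this rule names are not reported here.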

Additional observations from a re-analysis of the deposited data

How the results depend on the processing

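In total RNA, halofuginone gave 0 called members over 3 libraries a group, 62 within set B and 54 by DESeq2 within set B; leaving out 1 library gave 0 to 52 calls and a median of -0.54 to -0.02. For heavy against light polysomes in halofuginone cells, calls were 22 without and 48 with the replicate block, 39 by DESeq2, 0 within set B and 0 to 21 with 1 library left out. For light polysomes against ribosome-free RNA in vehicle cells they were 0, with 22 within set B, 2 with library totals alone and 0 to 13 with 1 library left out. In vehicle heavy against light polysomes the calls were 46, 60 with the block and 33 to 49 with 1 library left out, with a median of -0.71 to -0.32. The block changed no other count of called members from 0, and gave medians of -0.25 in total RNA and 0.28 for heavy minus total RNA.

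With 1 library left out, the halofuginone medians ran from -0.76 to 0.67 in the ribosome-free pool (0.08 within set B), -0.24 to 0.07 in light polysomes, -0.07 to 0.38 for heavy minus light (0.25 with library totals alone) and 0.08 to 0.63 for heavy minus total RNA. Signs of uncalled members turned in the ribosome-free pool: Ndufv3 and Cox5b were 0.06 and 0.02 within set B, and Ndufv3, Cox6a1 and Cox5b were 0.80, 0.43 and 0.94 without the set A vehicle library. Uqcrq there was -0.19 and -0.23 without either set B vehicle library and -1.09 without the set A halofuginone library, within a range of -1.09 to 1.35; Ndufv3 ran from -1.45, Cox6a1 from -1.23 and Cox5b from -1.36. Ndufa9 ran from -0.04 to 0.60 in light polysomes. For heavy minus light, Ndufa9 ran from -0.59 to 0.10, Uqcrc1 from -0.67 to 0.02 and Cox7a1 from -0.16 to 2.43, and for heavy minus total RNA Atp5l ran from -0.64 to 0.07. The cause was not tested.

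Library totals without mitochondrially encoded RNAs and without TMM gave a summed level of the members of 11670 CPM in vehicle total RNA, 19840 CPM in halofuginone light and 19380 CPM in halofuginone heavy polysomes. A threshold of 150 residues in place of 200 gave a median of -1.64 for short members in vehicle heavy against light polysomes, after -1.32. Counts of the 6 members under 1 CPM are too few for a comparison.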
